A study of Mus musculus with 186 samples.

Results

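Single inner cells of early mouse embryos were divided by their own level of Fgf4 RNA, and the cells with and without it were compared across all other genes. The cells carried the labels E3.25 or E3.75, for days of embryonic development, and came from fresh embryos. The classes were chosen by the Fgf4 value of each cell, with 10 TPM or more in the upper class and less in the lower class. TPM scales the transcripts of every library to the same total. Of the 169 cells measured in the series, 41 were fresh E3.25 or E3.75 cells, of which 19 were at or above 10 TPM of Fgf4 and 22 were below. All 41 cells were from CD-1 mice, an outbred stock, after natural matings, with no culture and no treatment, and the labels name no transgene or mutation in any group. Outer cells had been removed by immunosurgery, which lyses the outer layer with antibodies and complement. Each stage was collected in 2 experiments, told apart by their date labels, and each experiment drew its cells from more than 1 litter. Other untreated CD-1 cells entered the same fit: fresh inner cells labelled E4.0, and cells of embryos taken at E2.75 and cultured for 16 or 24 h with the vehicle DMSO.

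FGF4 is a secreted growth factor of the inner cell mass. It binds FGFR1 and FGFR2 at the cell surface and activates the RAS and ERK kinases, whose targets include the feedback genes Dusp4, Dusp6, Spry4 and Etv5. In the mouse blastocyst, cells on the way to epiblast carry NANOG and become the source of FGF4, while cells that respond to it keep GATA6 and form primitive endoderm. Both transcription factors are made together in early inner cells before the lineages part, so the question asked here was which genes, if any, already differed with Fgf4 at these stages.

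The classes were set by Fgf4 itself, so its values are a description only. At E3.25, experiment 1 held 7 cells above and 2 below the limit, and experiment 2 held 3 above and 7 below. At E3.75, experiment 1 held 6 above and 9 below, and experiment 2 held 3 above and 4 below. Cells of the upper class ranged from 12.6 to 396 TPM with a median of 39.7, and cells of the lower class ranged from 0 to 9.36 TPM with a median of 0.59. The cells just outside the limit had 9.36, 8.62 and 5.27 TPM, and those just inside had 12.6, 13.5 and 13.8 TPM. The lower class thus held cells with some Fgf4 as well as cells listed at 0.

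The labelled cell type matched its markers in part. Pou5f1, which marks inner cells, was at 10 TPM or more in 19 of 19 upper and 22 of 22 lower cells. Of the 8 trophectoderm markers checked, Cdx2 and Gata3 reached 10 TPM in no cell of either class. Eomes did so in 4 upper cells and 1 lower cell, and the keratin genes Krt8 and Krt18 did so in more than 10 cells of each class. Tead4 did so in 15 upper and 15 lower cells, Tfap2c in 8 and 8, and Krt7 in 1 and 0. The summed TPM of the 8 markers ran from 66.97 to 774 in upper and from 83.01 to 1314 in lower E3.25 cells, and from 13.8 to 384 and from 18.1 to 572 in those at E3.75. The part of outer-layer RNA in the results was not tested beyond leaving out the 5 cells with Cdx2, Gata3 or Eomes at 10 TPM or more. Depth cannot be read from TPM, and library quality was judged by how many genes had at least 1 TPM. This number ran from 4316 to 8622 over the 41 cells, with a median of 6277, and the share of TPM in mitochondrially encoded genes ran from 0.436% to 32.3%.

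**Figure D1:**
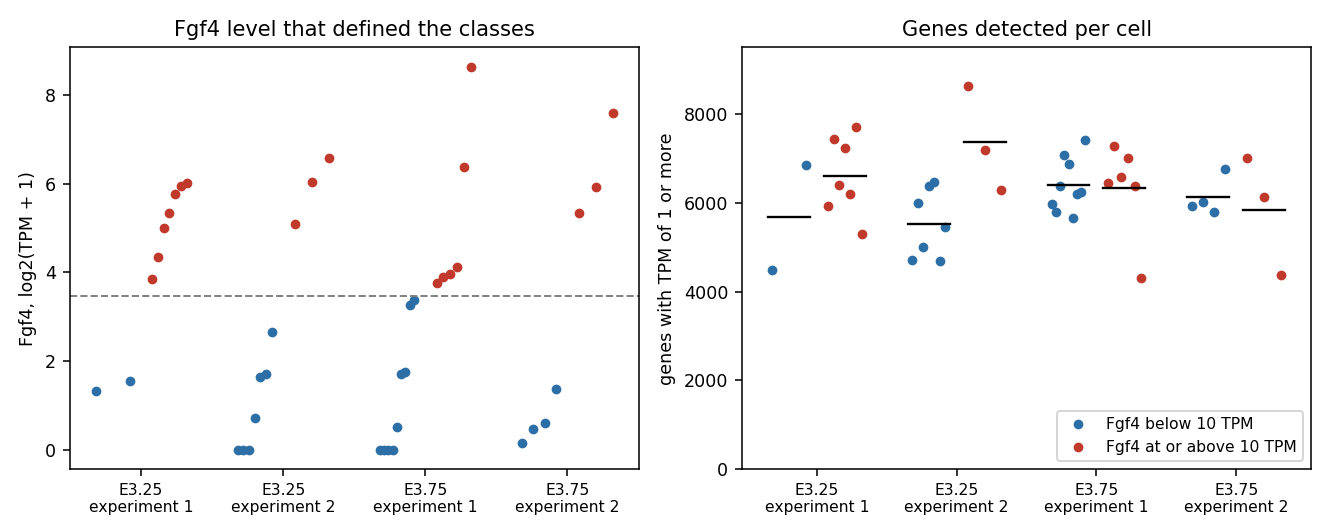
Left, Fgf4 as log2(TPM + 1) in each of the 41 cells by experiment, with the limit of 10 TPM dashed. Right, genes detected at 1 TPM or above in the same cells, with class means as black lines. At E3.25 the mean of upper cells lies above that of lower cells in both experiments (6599 against 5671, and 7360 against 5528), and at E3.75 it lies slightly below in both.

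No gene other than Fgf4 differed between the classes past the threshold over both stages. The value of an experiment was the mean of log2(TPM + 1) over its cells of a class, and classes were compared within experiments. A difference below is always upper minus lower class on that scale, which understates the change of genes at low levels. Of 8316 genes tested with limma, 0 passed a Benjamini-Hochberg adjusted p of 0.05 (0.00%), and the smallest adjusted p was 0.211. At an unadjusted p under 0.05 there were 559 genes with higher values in the upper class (6.72%) and 197 with lower values (2.37%). The median difference over all genes was 0.14, and 59.03% of genes had a difference above 0. The sign was the same in 4 of 4 experiments for 723 higher genes (8.69%) and 431 lower genes (5.18%). Nothing in the labels ties a cell to an embryo or litter, so the replicates are collections. The spread behind each p-value came from the groups with 2 experiments in the fit, those of the DMSO cultures included. It was moderated across genes by limma. The only E4.0 experiment in the fit was fitted exactly and added nothing to that spread.

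Nanog and Gata6, the factors of epiblast and primitive endoderm precursors, were present together in most cells of both classes. Both were at 10 TPM or more in 12 of 19 upper cells and 14 of 22 lower cells. Nanog alone reached that level in 7 upper and 7 lower cells, Gata6 alone in 0 and 0, and neither in 0 and 1. By stage, both genes reached it in 8 of 10 upper and 7 of 9 lower cells at E3.25, and in 4 of 9 upper and 7 of 13 lower cells at E3.75. Cells with and without Fgf4 thus held the pair at similar counts at E3.25, and no test was made of these counts because cells of an experiment are not replicates.

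Nanog ranged widely within each class. In E3.25 experiment 1 the 2 lower cells had 218 and 268 TPM of Nanog, and the 7 upper cells ran from 36.5 through a median of 177 to 341 TPM. In E3.25 experiment 2 the 7 lower cells ran from 76.95 through 1436 to 1579 TPM, and the 3 upper cells had 85.7, 694 and 1075 TPM. The classes overlapped in both experiments, and the lower class had the higher mean. In E3.75 experiment 1 the 9 lower cells ran from 4.70 through 68.98 to 126 TPM and the 6 upper cells from 51.1 through 110 to 204 TPM. In E3.75 experiment 2 the lower cells had 27.4, 162, 222 and 340 TPM and the upper cells 74.5, 89.6 and 1443 TPM. Here the upper class had the higher mean, again with overlap. The difference of Nanog was 0.10 ± 0.45 (SE, 4 experiments; 95% interval -0.87 to 1.07; limma adjusted p = 0.967), from -0.78 at E3.25 and 0.98 at E3.75.

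Gata6 and Sox2 likewise overlapped between the classes. Gata6 in E3.25 experiment 2 was at 30.8, 45.5 and 104 TPM in the upper cells and ran from 1.34 through 21.5 to 92.8 TPM in the lower cells. In E3.75 experiment 2 it was at 0, 19.7 and 20.7 TPM in the upper cells and at 7.90, 17.15, 36.1 and 55.4 TPM in the lower cells. Its mean was higher in the upper class in both E3.25 experiments, and its difference over both stages was 0.27 ± 0.57 (95% interval -0.95 to 1.49; limma adjusted p = 0.921). Sox2, a factor of the inner cell mass and epiblast that acts with OCT4, differed by 0.85 ± 0.65 (95% interval -0.53 to 2.24; adjusted p = 0.727). Its class means differed by -1.01 and 2.21 in the E3.25 experiments and by 1.51 and -0.46 in those at E3.75, so the sign turned between experiments of each stage. The intervals of these factors include differences of more than 1 on the log2 scale, so differences of that size could not be told from 0 with 4 collections.

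The receptors of FGF4 were measured in the same cells. Fgfr1 was at 10 TPM or more in 17 of 19 upper and 17 of 22 lower cells, with a difference of 0.28 ± 0.54 (95% interval -0.87 to 1.43; limma adjusted p = 0.911). Fgfr2 was scarce. It reached 10 TPM in 0 of 19 upper cells and in 3 of 22 lower cells, and it was listed at 0 in 13 upper and 10 lower cells. In E3.25 experiment 2 the 7 lower cells had Fgfr2 from 0.46 through 4.19 to 45.6 TPM, while the 3 upper cells had 0, 0 and 8.85 TPM. In E3.75 experiment 2 the 4 lower cells were all listed at 0 and the upper cells had 0, 0 and 4.02 TPM, the opposite order. The difference of Fgfr2 was -0.33 ± 0.46 (95% interval -1.31 to 0.65; adjusted p = 0.873). Of the 25 FGF ligands, receptors and heparan sulfate genes listed, 9 were tested and 0 passed, with 6 above 0 and a median of 0.12 against 0.14 over all genes. Fgf10, another ligand, and Sdc4, a heparan sulfate carrier at the cell surface, had the smallest unadjusted p of this list, with differences of 1.00 and -1.19.

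No gene of the ERK pathway passed the adjusted threshold in either direction. Dusp4, a phosphatase that switches off ERK, was at 10 TPM or more in 8 of 19 upper and 5 of 22 lower cells and differed by 0.70 ± 0.57 (limma adjusted p = 0.746). Etv5, a transcription factor induced by ERK, reached that level in 12 upper and 16 lower cells and differed by 0.63 ± 0.58 (adjusted p = 0.786). The difference of Etv5 was 1.85 at E3.25 and -0.59 at E3.75, so its sign turned between stages. Dusp6 and Spry4, which also act in ERK feedback, were detected in too few cells to be tested: Dusp6 reached 10 TPM in 1 upper and 1 lower cell, and Spry4 in 0 of either class. Of 22 ERK feedback and target genes listed, 9 were tested, 8 had a difference above 0 and the median was 0.63. Myc, a growth regulator, had the smallest p of them, with a difference of 1.24 (unadjusted p = 0.0396), and Dusp1 followed with 1.006. Of 21 RAS and ERK cascade genes listed, 14 were tested and 7 were above 0, with a median of 0.12. The median of the ERK feedback list turned to -0.72 with genes detected as a covariate.

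**Figure D2:**
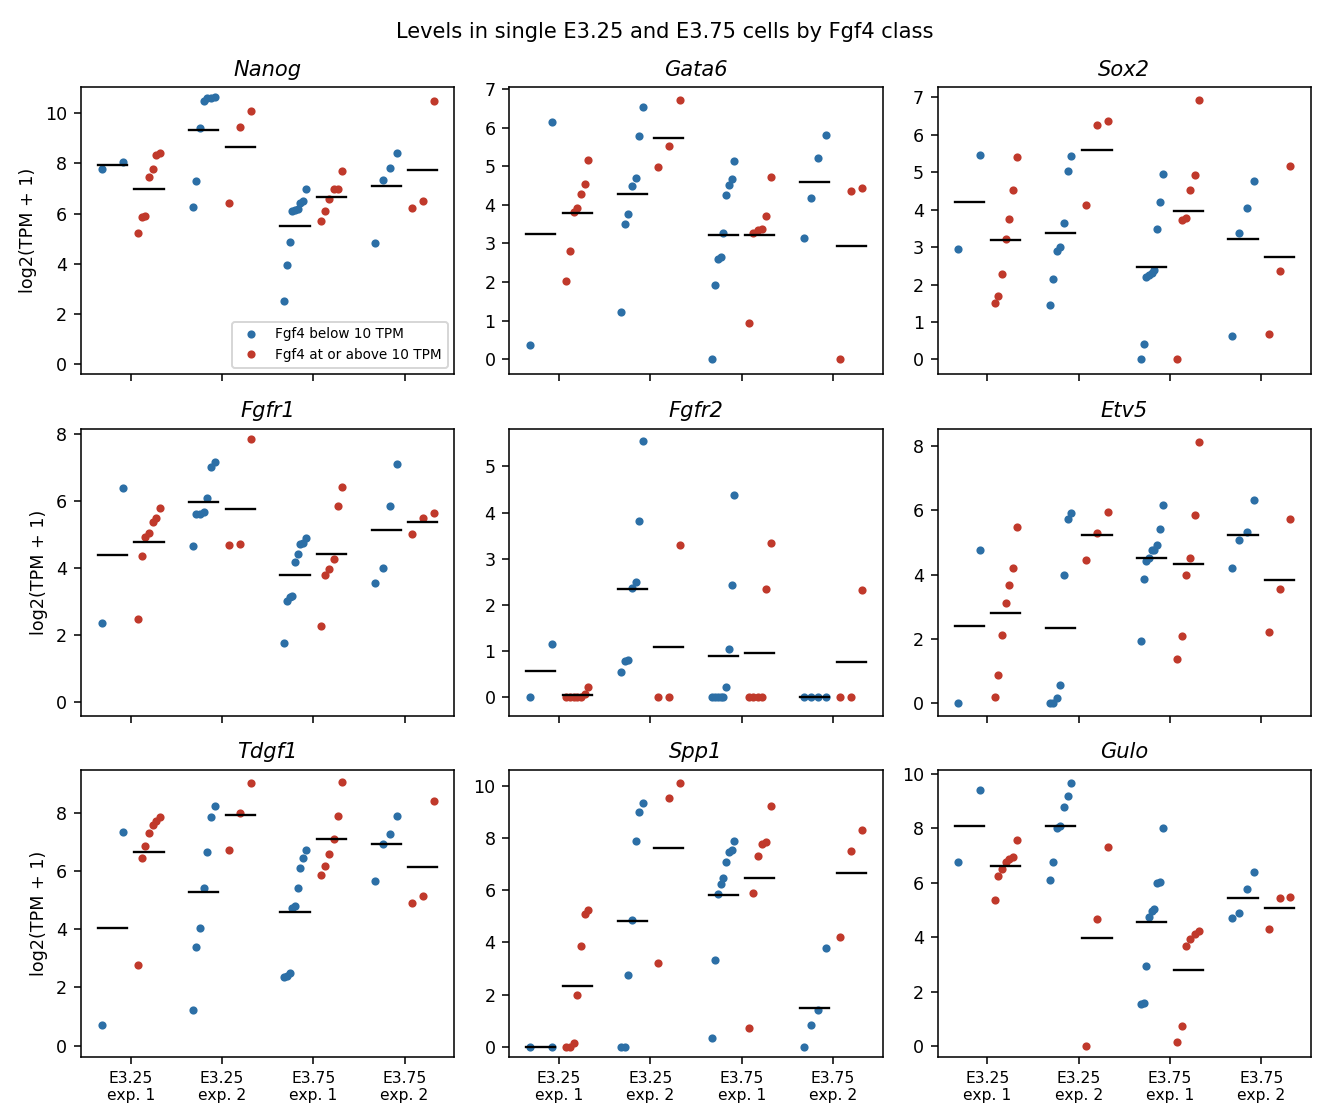
log2(TPM + 1) of 9 genes in each of the 41 cells, by experiment and Fgf4 class, with class means as black lines. Nanog, Gata6, Sox2, Fgfr1, Fgfr2 and Etv5 overlap between classes in each of the 4 experiments, while Tdgf1 and Spp1 tend to lie higher and Gulo lower in cells with Fgf4; none of these passed the adjusted threshold over both stages.

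Tdgf1, Spp1 and Hdac2 were among the listed genes with higher means in the upper class, and none of the 3 passed. Tdgf1 encodes CRIPTO, the co-receptor of NODAL on the surface of epiblast cells. In E3.75 experiment 1 the upper cells ran from 57.2 through a median of 115 to 529 TPM of Tdgf1, and the lower cells from 4.18 through 26.6 to 104 TPM. In E3.25 experiment 2 the upper cells had 105, 251 and 513 TPM, and the lower cells ran from 1.35 through 41.7 to 301 TPM. In E3.75 experiment 2 the order turned, with 28.6, 34.4 and 340 TPM in upper cells against 49.2, 120, 152 and 236 TPM in lower cells. Tdgf1 was thus higher on average in 3 of 4 experiments, and its difference was 2.04 ± 0.62 (95% interval 0.71 to 3.37; unadjusted p = 0.00542; limma adjusted p = 0.375).

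Spp1, which encodes the secreted protein osteopontin, had a higher mean in the upper class in 4 of 4 experiments. It was at 17.4, 182 and 313 TPM in the upper cells of E3.75 experiment 2 and at 0, 0.79, 1.63 and 12.7 TPM in the lower cells, without overlap. In E3.25 experiment 1 both lower cells were listed at 0 and the 7 upper cells ran from 0 through 3 to 36.8 TPM, so the classes touched. The difference of Spp1 was 2.35 ± 0.72 (95% interval 0.80 to 3.90; unadjusted p = 0.00586; limma adjusted p = 0.381). Hdac2, a histone deacetylase, differed by 2.13 ± 0.59 (unadjusted p = 0.00284; adjusted p = 0.341). Its upper cells in E3.75 experiment 2 had 26.3, 39.9 and 51.1 TPM against 0.09, 1.08, 2.68 and 17.8 TPM in lower cells, and its sign was the same in 4 of 4 experiments.

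Among epiblast and naive pluripotency genes, 25 of 30 listed were tested, 21 had a difference above 0 and none passed, with a median of 0.34 against 0.14 over all genes. At an unadjusted p under 0.05 there were 2, Spp1 and Tdgf1, both given above. Klf2 and Klf4, factors of the naive state, differed by 0.94 and 0.93, Bmp4, a secreted ligand made by epiblast cells, by 0.95, and Zfp42, a naive marker, by 1.00. Klf2 was higher in 4 of 4 experiments and Klf4 in 3 of 4, while Bmp4 was higher in 2 and lower in 2. The limma adjusted p of Klf2, Klf4 and Bmp4 were 0.683, 0.723 and 0.746. Pou5f1 and Sall4 differed by -0.16 and -0.27. Prdm14 and Morc1, which were below the detection filter and not tested, reached 10 TPM in 5 of 19 upper cells each and in 0 of 22 lower cells each. They were singled out after their values were seen, and Enox1, in the same marker list, did so in 0 of either class. These cells share collections, and no test was made of them. The epiblast list median was -0.31 with genes detected as a covariate.

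No primitive endoderm gene passed the threshold in either direction. Of 32 listed, 19 were tested, and 13 had a difference above 0, with a median of 0.27. Sox17, a later endoderm factor, differed by 0.61 ± 0.60 (95% interval -0.68 to 1.90; limma adjusted p = 0.804), and Pdgfra, the receptor that marks the lineage, by 0.05 ± 0.49 (95% interval -0.996 to 1.11; adjusted p = 0.981). Col4a1, a basement membrane collagen, had the smallest p of this list and a difference of -1.41 (unadjusted p = 0.0349), and Aqp8, a water channel, differed by 1.29. Gata4 reached 10 TPM in 4 of 19 upper and 2 of 22 lower cells. At E3.75 Gata4 did so in 4 of 9 upper and 1 of 13 lower cells. Over both stages Sox17 reached 10 TPM in 5 of 19 upper and 5 of 22 lower cells. Sox7 and Foxa2 did so in 0 of either class. Of the 11 trophectoderm genes tested of 23 listed, 8 had a difference above 0 and none passed, with a median of 0.41. The smallest p of them were those of Eomes, with a difference of 1.08, and Lgals3, which encodes galectin 3, with 2.15. Both list medians turned negative with genes detected as a covariate, to -0.75 for primitive endoderm and -0.76 for trophectoderm.

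A list of 20 early inner cell genes, chosen for their fall across stages in these same samples and so not independent evidence, leaned the other way. Of 15 tested, 2 had a difference above 0, and the median was -0.68. The lowest were Alppl2, a germ-cell type alkaline phosphatase, at -2.48, and Gulo, the last enzyme of vitamin C synthesis, at -2.14. Gulo had 0, 24.6 and 157 TPM in the upper cells of E3.25 experiment 2, and 67.3 through 273 to 807 TPM in the lower cells. In E3.75 experiment 1 it ran from 0.11 through 13.02 to 17.9 TPM in upper cells and from 1.97 through 30.0 to 259 TPM in lower cells. The classes overlapped in both, and Gulo was lower on average in 4 of 4 experiments (95% interval -3.44 to -0.83; limma adjusted p = 0.347). The 2 members above 0 were Tdgf1 and Upp1, a uridine phosphorylase, at 1.11. With genes detected as a covariate the median of the list turned to 0.24 and the difference of Gulo to 0.0596.

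**Figure D3:**
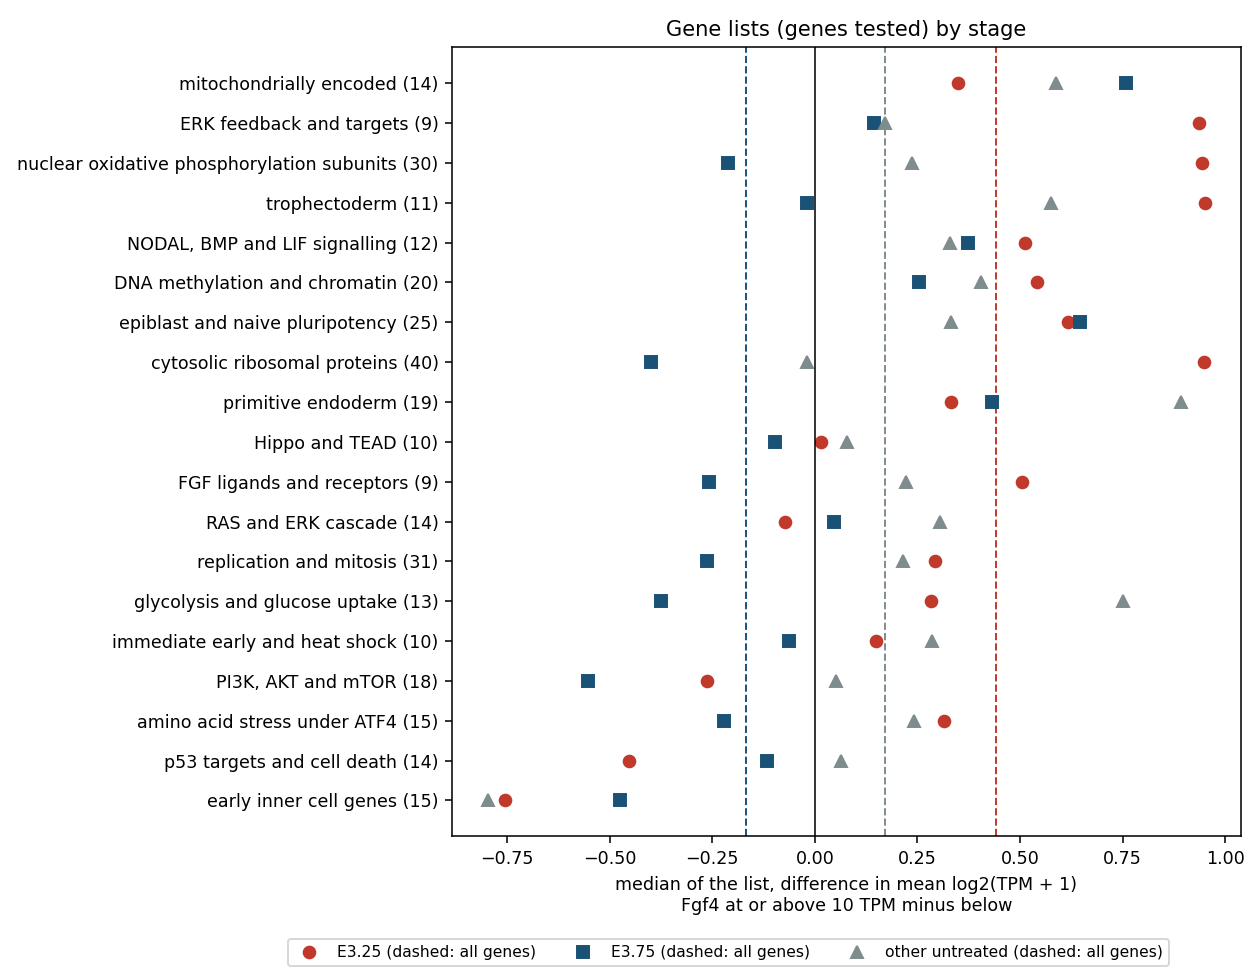
Median difference between Fgf4 classes, in mean log2(TPM + 1), for 19 gene lists at E3.25 (circles), at E3.75 (squares) and in other untreated cells (triangles), with the median of all genes tested as dashed lines and the number of genes tested in brackets. Ribosomal and oxidative phosphorylation genes lie at 0.95 and 0.94 at E3.25 and at -0.40 and -0.21 at E3.75, while early inner cell genes lie below 0 in all 3.

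The 12 genes with the smallest p on the higher side included genes of ribosomes, mitochondria and RNA processing. They did not pass, with adjusted p between 0.211 and 0.328, and 9 of the 12 were higher in 4 of 4 experiments. A choice by p in these same experiments favours genes with a shared sign, so this count is a description only. Mzt2, a partner of gamma-tubulin in the mitotic spindle, differed by 2.93 ± 0.55, Uqcrb, a subunit of respiratory complex III, by 2.93 ± 0.53, and Sf3b6, a splicing factor of the U2 particle, by 2.62 ± 0.51. Mzt2 was at 28.5, 131 and 135 TPM in the upper cells of E3.75 experiment 2 and at 0.70, 5.32, 58.5 and 107 TPM in the lower cells. In E3.25 experiment 2 it was at 7.98, 28.3 and 89.4 TPM in upper cells and listed at 0 in 5 of 7 lower cells. The others were Rps15a, Rps27a-ps2, Atp5md, Gm10243, Rpl35, Retreg3, Rps27a, Zfp213 and Pdcd2, from 1.36 to 2.81. Of the 12, only Zfp213 had a larger difference at E3.75 than at E3.25 (1.80 against 0.92). Sf3b6 differed by 4.26 at E3.25 and 0.97 at E3.75. Rps15a, Rps27a-ps2, Atp5md, Rpl35 and Uqcrb are also in the E3.25 set below, so they are not a separate result. At E3.75 they differed by 0.32, 0.58, 0.59, 0.06 and 1.17. Pdcd2, a protein linked to assembly of the small ribosomal subunit, differed by 3.50 and 2.55 in the E3.25 experiments and by 2.03 and 2.15 in those at E3.75. Values of Rps27a-ps2, a processed pseudogene, and of Gm10243 are uncertain, because reads can be shared with near-identical copies.

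The 12 genes with the smallest p on the lower side were lower in 4 of 4 experiments in every case, and did not pass either (adjusted p 0.328 to 0.341). Their shared sign follows in part from the choice by p in the same experiments. Nudt19, a peroxisomal enzyme that splits coenzyme A, had the largest difference of them, -2.77 ± 0.64. In E3.75 experiment 1 it was listed at 0 in 4 of 6 upper cells, with a highest value of 4.63 TPM, and ran from 0 through 13.3 to 98.5 TPM in lower cells. In E3.25 experiment 2 the upper cells had 0, 1.5 and 3 TPM and the lower cells ran from 0 through 17.01 to 203 TPM. In E3.25 experiment 1 the upper cells ran from 0.88 through 32.2 to 198 TPM against 66.97 and 248 TPM in the lower cells. The classes overlapped in all 3 of these experiments, and the upper cells of E3.25 experiment 1 were not uniformly low. Angptl4, a secreted inhibitor of lipoprotein lipase, differed by -2.34 ± 0.62. In E3.75 experiment 1 it ran from 0.21 through 0.73 to 6.08 TPM in upper cells and from 2.15 through 17.6 to 58.6 TPM in lower cells. Grhpr, a glyoxylate reductase, differed by -2.30, Smarcad1, a chromatin remodeller, by -1.91, Mcm3ap, which acts in messenger RNA export, by -2.48, and Sigirr, an inhibitory receptor of the interleukin 1 family, by -1.46. Ap5s1, Gm45236, Zfp513, Pum3 and Zfp668 were also in this set, from -2.61 to -1.74. Metabolic enzymes, chromatin and RNA factors are mixed in this set, and no pathway was tested for it.

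By stage, differences appeared at E3.25. There 12 genes were higher in the upper class and 0 were lower, which was 0.144% of the 8316 genes, and at an unadjusted p under 0.05 there were 10.9% higher and 1.70% lower. The 12 were named because they passed, after their values were seen. They comprised the ribosomal genes Rps15a (4.58), Rpl35 (3.45) and Rpl7 (3.59), the pseudogene Rps27a-ps2 (4.39) and the mitochondrial genes Uqcrb (4.69), Atp5md (5.03) and Atp5j (3.77), where Atp5md and Atp5j encode ATP synthase subunits. The other 5 were Pop5 (4.76), a subunit of the RNases P and MRP that trim transfer and ribosomal RNA, Pfdn5 (4.06), a prefoldin chaperone of actin and tubulin, Bloc1s2 (5.25), which acts in lysosome positioning, Trappc4 (4.36), a vesicle tethering factor, and Prss35 (2.49), a protease-like protein. Their limma adjusted p lay between 0.0422 and 0.0499, just within the threshold. The median difference over all genes at E3.25 was 0.44, and quantile normalization moved it to -0.01. The values of the 12 are therefore to be read beside a general shift, and under quantile normalization 0 of the 12 passed.

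Cell values of the leading genes show the pattern at E3.25. Rps15a ran from 96.6 through 320 to 3445 TPM in the 7 upper cells of experiment 1, and was at 2.82 and 16.97 TPM in the 2 lower cells. In experiment 2 it was at 240, 258 and 2686 TPM in upper cells and ran from 5.73 through 46.5 to 323 TPM in lower cells. The classes were apart in experiment 1 and overlapped in experiment 2. Bloc1s2 ran from 26.2 through 76.01 to 362 TPM in the upper cells of experiment 1 and was at 0 and 1.35 TPM in the lower cells. In experiment 2 its upper cells had 7.05, 339 and 597 TPM and its lower cells ran from 0 through 1.22 to 146 TPM. Uqcrb was listed at 0 in both lower cells of experiment 1 and ran from 1.83 through 59.65 to 1135 TPM in upper cells. In experiment 2 its upper cells had 109, 123 and 523 TPM and its lower cells ran from 0 through 12.9 to 877 TPM, so the classes overlapped. All 12 genes were higher on average in both experiments, in part because they were named by p there. Experiment 1 rests on 2 lower cells. Both of those were of sequencing run 2, as were 4 of its 7 upper cells, and with means and blocks by experiment and run 1 of the 12 genes passed.

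**Figure D4:**
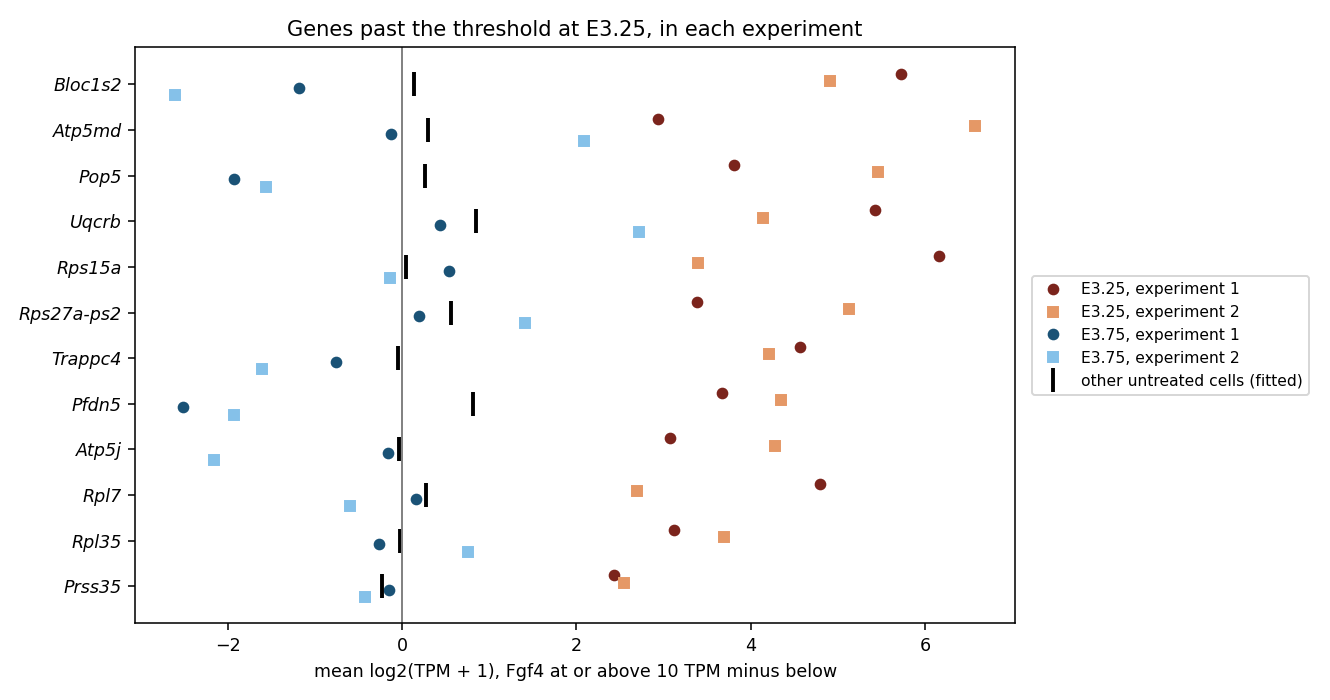
Difference between Fgf4 classes in each of the 4 experiments, in mean log2(TPM + 1), for the 12 genes past the threshold at E3.25, with the fitted difference in other untreated cells as a black bar. The E3.25 points of every gene lie above 2, while the E3.75 points lie on both sides of 0 and those of Pfdn5, Pop5 and Bloc1s2 lie below -1 in both experiments. The Pop5 point of E3.75 experiment 2 lies below 0 through a single upper cell at 1.3 TPM.

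For 8 of these 12 genes RefSeq gave the bases around the annotated start (GRCm38.p6), shown because Rps15a and Rpl35 are ribosomal genes, whose messages are known to begin with an unbroken run of C and T. The 6 printed are the ribosomal pair, the genes with the largest differences and the pair that differed between stages. Each line holds 24 bases before and 6 from the annotated start, on the gene's strand, with the longest run of C and T that comes within 3 bases of the start in capitals.
Rps15a, chr7:118116142-118116171, minus strand: cccggcccactctctttctgccaTCTTCCC
Rpl35, chr2:39005126-39005155, minus strand: tgaggaagtcggccccgCCCTTTCCTCTTT
Atp5md, chr19:47090642-47090671, minus strand: gtcggtcgcgtgcggggagggggcgTCTTC
Bloc1s2, chr19:44146441-44146470, minus strand: ccgcggggcgcacgcgcagatgCCCTTaga
Pop5, chr5:115235827-115235856, plus strand: cgggccggaggacgaagaccggggaTCCga
Pfdn5, chr15:102326092-102326121, plus strand: gagcgtatcccctggcggcaCCacggaggt
Rps15a, Rpl35, Atp5md and Bloc1s2 hold a run of at least 5, and Rpl35 a run of 13, the only run of at least 8 among the 8 genes matched. A run of at least 5 was found in 22.1% of 32851 annotated starts and in 13 of the 30 matched ribosomal genes of the list (43.3%), and a run of at least 8 in 5.62% and in 7 of 30 (23.3%). The minimum of 5 was set after the result with 8 had been seen. A run in this window is a description of the sequence and not a site.

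The number of genes detected moved with the classes at E3.25. Upper cells had more genes detected by 928 in experiment 1 and by 1832 in experiment 2, and the upper minus lower difference was -68.1 and -292 in the E3.75 experiments. Over the 4 experiments the mean difference was 600.0 genes (2 of 4 higher, exact sign-flip permutation test, two-sided p = 0.5, a test that cannot reach 0.05 with 4 experiments; adjusted p = 0.625 over 5 library measures). The share of mitochondrial TPM was higher in upper cells in 3 of 4 experiments, by 2.47 percentage points on average (exact permutation test, two-sided p = 0.25; adjusted p = 0.625). At E3.25 its sign turned between experiments, with 1.78 points in experiment 1 and -1.63 in experiment 2. With genes detected as a covariate 2 genes passed at E3.25, which were 0 of the 12, and without the 6 cells with the fewest genes, an alternative chosen after the data were seen, 1 passed. Leaving out E3.25 experiment 1 left 4 calls and leaving out experiment 2 left 6, of which 2 each time were among the 12. With only the E3.25 and E3.75 experiments in the fit, or under quantile normalization, 0 genes passed at E3.25, and the 12 kept their sign in both. Whether the 12 genes differ apart from the number of genes detected was not tested further.

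Transcript length also went with these differences. Of the 12 genes, 11 had a length in GENCODE M21, with a median of 552 bases against 945 over all genes tested, and 8 lay in the shortest of 4 equal length bins. The median difference at E3.25 went from 0.60 in the shortest bin through 0.41 and 0.40 to 0.34 in the longest, and at E3.75 the same bins stood at -0.21, -0.25, -0.12 and -0.07. The library protocol recovered complementary DNA above a set size, and the part of length in the calls was not tested. The bins were chosen after the data were seen.

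Ribosomal and respiratory genes had medians above 0 at E3.25 and below 0 at E3.75, as did all genes tested, of which 66.3% were above 0 at E3.25 and 41.5% at E3.75. Of 40 cytosolic ribosomal protein genes tested, 36 had a difference above 0 at E3.25, with a median of 0.95, and 2 passed in the list used, Rpl35 and Rpl7. At E3.75, 5 of 40 were above 0, the median was -0.40 and none passed. Rps4x, the ribosomal protein gene on the X chromosome, was one of those 5, with differences of 3.10 at E3.25 and 1.44 at E3.75. Of 30 nuclear oxidative phosphorylation subunits, 23 were above 0 at E3.25, with a median of 0.94 and 1 that passed, Uqcrb. At E3.75, 9 of the 30 were above 0, with a median of -0.21 that turned to 0.22 on leaving out E3.75 experiment 1. The medians of all genes at the same stages were 0.44 and -0.17. At E3.25 the ribosomal median was 0.96 under quantile normalization, 2.31 with genes detected as a covariate and 0.01 without the 6 cells with the fewest genes, and the oxidative phosphorylation median was 0.91, -0.08 and 0.36. Genes encoded by mitochondria had medians of 0.35 at E3.25 and 0.76 at E3.75, which over the other settings ran from -1.12 to 0.73 and from -0.28 to 1.26. Among them mt-Co2 had the smallest p over both stages (1.82, adjusted p = 0.345).

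At E3.75 no gene passed in either direction (0 of 8316 in limma, 0.00%; 465 at an unadjusted p under 0.05, 1.77% higher and 3.82% lower; smallest adjusted p 0.837). The median difference was -0.17. Of the 12 genes that passed at E3.25, 6 had lower means in the upper class in both E3.75 experiments and 2 had higher means in both, with differences from -2.33 to 1.17. The test of the difference between stages called 2 genes (0.0241%), Pfdn5 and Pop5, both also named by their calls. Pfdn5 ran from 9.41 through 71.2 to 172 TPM in the upper cells of E3.75 experiment 1 and from 152 through 316 to 595 TPM in the lower cells. In E3.25 experiment 1 the order was the reverse, with 127 through 341 to 831 TPM in upper cells against 3.35 and 172 TPM in lower cells. The class difference of Pfdn5 was 6.38 lower at E3.75 than at E3.25 (-6.38, limma adjusted p = 0.0285), and that of Pop5 was -6.58 (adjusted p = 0.0400). Pop5 had 1.3, 568 and 576 TPM in the upper cells of E3.75 experiment 2 and 170, 230, 238 and 562 TPM in the lower cells. Its lower mean in the upper class there rests on the single cell at 1.3 TPM, while the other upper cells exceeded every lower cell. Both calls were lost with genes detected as a covariate, with 0 genes called, and on leaving out E3.25 experiment 2 or either E3.75 experiment, with 0 called each time.

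Other untreated cells allowed the same comparison in cells whose mean class differences had no part in choosing the members. They were E4.0 cells of 1 experiment and DMSO-cultured cells of 2 experiments at each culture time that held at least 2 cells of each class. No gene passed there (0 of 8316 in limma, 0.00%; 549 at an unadjusted p under 0.05, 5.35% higher and 1.25% lower; smallest adjusted p 0.716), and the median difference was 0.17. Of the 559 genes with higher values in early cells at an unadjusted p under 0.05, 407 were also above 0 in the other cells (72.8%, against 62.7% of all genes), and 48 were higher at an unadjusted p under 0.05 (8.59%, against 5.35%). Of the 197 with lower values, 93 were also below 0 (47.2%, against 37.3%) and 7 at an unadjusted p under 0.05 (3.55%, against 1.25%). Genes of the same direction were thus somewhat more frequent than over all genes, and this share was not tested. Upper cells also had more genes detected on average in E4.0 (7487.5 against 6734) and in both 24 h DMSO experiments (7390 against 6255, and 8059.5 against 6727). They had fewer in both 16 h DMSO experiments (6836 against 7220, and 6846 against 7166.5). The part of genes detected in the shared direction was not tested. Both p-values of a gene rest on the same estimate of its spread. The shares at an unadjusted p under 0.05 are therefore not independent of the choice of genes.

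Single genes divided by whether the other cells showed the same values. Spp1 differed by 2.35 in early cells and by 2.199 in the others (unadjusted p = 0.00751 there). Ldha, the enzyme that makes lactate, differed by 1.64 and 1.93 (p = 0.00327 in the others), Slc2a3, a glucose transporter, by 1.21 and 2.15 (p = 0.00354), and Gulo by -2.14 and -1.33 (p = 0.0415). None of these limma p-values passed the adjusted threshold. Ldha and Slc2a3 had the smallest p in early cells of a list of glycolysis and glucose uptake genes. Of its 13 genes tested, 5 were above 0 in early cells, with a median of -0.03. All 13 were above 0 in the other cells, with a median of 0.75. Tdgf1 differed by 0.88 and Hdac2 by 1.17 in the other cells, Nanog by 0.07 and Gata6 by 0.70. By contrast, the 12 genes of E3.25 had differences from -0.24 to 0.85 there, with a smallest unadjusted p of 0.0743. Nudt19 and Mcm3ap stood at 1.13 and 1.35 in the other cells, opposite in sign to early cells, and 7 of the 12 genes of the lower side and 10 of the 12 of the higher side kept their sign. The direct test of early against other cells called 0 genes (0.00%; 424 at an unadjusted p under 0.05 in limma; smallest adjusted p 0.911), so no gene was shown to be particular to the early stages.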

How the data were processed

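Single-cell RNA was measured as polyadenylated RNA reverse-transcribed from the 3′ end and amplified, per the labels' protocols. The authors deposited 1 table of TPM values with 170 columns for 186 labelled samples, and the 16 samples without a column were not analysed here. Of 45 labelled early fresh samples, 3 had no column, and a pair of columns at E3.25 that differed in title only by a suffix (correlation 0.824, highest other 0.783) was averaged as 1 cell. Reads were handled with STAR 2.7.9a and RSEM 1.3.3, after bcl2fastq 2.20.0 and cutadapt 2.9, on build mm10, as far as the submitters' processing notes say. Annotation and strand setting are not given in the sources used here. Because TPM divides by length while priming is at the 3′ end, levels of different genes are not on one scale. Class differences compare a gene between cells. The limit of 10 TPM and the summed markers set genes side by side and are descriptions only. Depth is unknown.

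Means of log2(TPM + 1) per experiment and class, weighted by cells, were fitted with limma 3.58.1 in R 4.3.3 (experiment as block, 1 class coefficient per untreated group, trended variance, 18 means of 9 experiments, 4 residual degrees of freedom). Genes had a TPM of at least 1 in at least 25% of early fresh cells. The 92 spike-in lines were left out, and the fit was tested on simulated data. Exact tests used scipy 1.17.1. Experiment is the block of the design, since classes share a collection.

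The members and gene lists were chosen with earlier results of these data known. Named genes were the 12 higher and 12 lower genes with the smallest p, where none passed, 15 fixed lineage and FGF genes, and in each list the members past the threshold or the 2 with the smallest p. Other genes named were singled out after their values were seen. A gene that the rule names on the lower side is not reported here.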

Additional observations from a re-analysis of the deposited data

Results flagged for a closer look

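The class difference of Pfdn5 and Pop5 was called as different between the 2 stages in the main fit. E3.75 minus E3.25 was -6.38 for Pfdn5 and -6.58 for Pop5 by the limma test of the difference itself. Neither call held with only the early experiments in the fit (limma adjusted p = 0.175 for each). With genes detected as a covariate the limma adjusted p was 0.490 for Pfdn5 and 0.641 for Pop5. The number of genes detected also differed between stages, being higher in cells with Fgf4 by 1380 on average at E3.25, in both experiments, and different by -180.01 at E3.75, in both experiments. This second difference was not tested. No cause was tested for either. Outlying cells were not sought, because the labelled groups hold more than 10 cells each.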

How the results depend on the processing

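The fit was repeated under 28 other settings, of which 3 were chosen after the data were examined: run 1 cells with at least 1 cell of each class, without the 6 cells with the fewest genes, and without cells with trophectoderm factors. Of 160 recomputed counts, 50 moved by more than 1.5 times.

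Over both stages 6 genes passed with at least 3 cells of each class, 4 in run 2 cells and 3 with genes detected as a covariate, and 0 to 5 on leaving out experiments in turn. At E3.25 the count of 12 became 0 with only the E3.25 and E3.75 experiments in the fit, an Fgf4 limit of 30 TPM, a pseudocount of 10, the log2 of mean TPM, detection in 10% of cells, quantile normalization or run 1 cells with at least 1 cell of each class. It became 1 with no filter, by experiment and run, or without the 6 cells with the fewest genes, 2 with the covariate, 3 with no replicate block, 4 with at least 3 cells of each class, 24 with a limit of 1 TPM or the pair of columns kept apart, and 229 in run 1 cells. The count of 229 rests on E3.25 experiment 2 alone, because both lower cells of experiment 1 were of run 2. It therefore cannot be read as stronger differences in run 1. Leaving out experiments gave 4 to 10. At E3.75, 2 genes passed with no filter and 1 in run 2 cells. The 2 calls between stages became 0 without weights, with only the early experiments, a pseudocount of 10, the log2 of mean TPM, detection in 10%, no filter, quantile normalization, the covariate, run 2 cells, by experiment and run, run 1 cells with at least 1 cell of each class or without the 6 cells, and 1 with a limit of 30 TPM or without cells with trophectoderm factors. They became 5 with a pseudocount of 0.1, 11 with a limit of 1 TPM, 12 with at least 1 cell of each class and 14 with at least 3, and 0 to 3 on leaving out experiments. In other untreated cells 2 passed with at least 3 cells of each class, 1 with a limit of 1 TPM, 166 with no filter and 3 in run 1 cells. The cause was not tested. The fit without the replicate block kept the sign of all 12 genes of E3.25, and 3 of them passed in it. The other settings run also kept their sign, with 11 of the 12 tested where detection in 50% of cells was asked. These settings used the cells that named the 12, or part of them, so a kept sign is not independent evidence.

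Of the differences of named genes over both stages, 63 values in 30 genes changed sign, none of them past the threshold. In run 1 cells with at least 1 cell of each class the value of Rps15a -0.23, Nanog -0.35, Gata6 -1.09, Fgfr1 -0.0352, Eed -0.18, Ldha -0.0300 and Cenpf -0.52 had the other sign. In run 2 cells the value of Zfp213 -0.00318, Pdgfra -0.50, Sox17 -0.27, Etv5 -0.0269, Sdc4 0.0217 and Dusp1 -0.13 had the other sign. Without the block the value of Nanog -0.25, Gata6 -0.10, Fgfr1 -0.000447 and Pdgfra -0.28 had the other sign. With an Fgf4 limit of 1 TPM the value of Nanog -0.64, Pdgfra -0.59, Col4a1 0.43, Hras -1.74 and mt-Atp8 -0.36 had the other sign. With the pair of columns kept apart the value of Nanog -0.0739 had the other sign. With genes detected as a covariate the value of Sox2 -1.72, Gata6 -0.44, Fgfr2 0.67, Pdgfra -0.75, Sox17 -1.72, Etv5 -1.19, Bmp4 -3.18, Klf2 -0.29, Klf4 -1.94, Rasa1 -0.13, Myc -0.87, mt-Atp8 -0.31, Hspb1 0.94, Trp53 0.95 and Gulo 0.0596 had the other sign. With a limit of 30 TPM the value of Gata6 -0.18, Dusp4 -0.50, Aqp8 -0.0532, Eomes -0.0475, Cenpf -0.52 and Egr1 -0.17 had the other sign. On the log2 of mean TPM the value of Gata6 -0.22 and Pdgfra -0.66 had the other sign. Without cells with trophectoderm factors the value of Fgfr1 -0.00123 and Sox17 -0.17 had the other sign. Without weights the value of Pdgfra -0.00665 had the other sign. With a pseudocount of 10 the value of Pdgfra -0.12 had the other sign. Under quantile normalization the value of Pdgfra -0.17 had the other sign. Without the 6 cells with the fewest genes the value of Dusp4 -0.50 had the other sign. With means by experiment and run the value of Hras -0.10 had the other sign. Leaving out experiments in turn, the values ran for Nanog from -0.0675 to 0.18, for Sox2 from -0.0706 to 1.54, for Gata6 from -0.29 to 0.54, for Pdgfra from -0.34 to 0.35, for Sox17 from -0.45 to 1.40, for Dusp4 from -0.32 to 1.21, for Etv5 from -0.0844 to 1.15, for Bmp4 from -0.54 to 2.05, for Klf4 from -0.51 to 2.00. Run 1 cells gave no value over both stages or at E3.75, and run 2 cells none in other untreated cells. With 2 collections a stage and 2 to 9 cells a class in each, only large differences could pass, and depth is unknown.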
